A study of Homo sapiens with 6 samples.

Results

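The genes described here encode the ribosome of the mitochondrion and the machinery that brings proteins into it, measured in SW480 cells on soft and stiff hydrogels. They were taken by name from the deposited mRNA table, as every symbol that starts with MRPL, MRPS, TOMM or TIMM, together with SAMM50, and 92 of the 8529 genes in the table met this rule. By name alone, 70 belong to the mitochondrial ribosome (44 MRPL genes of the large subunit and 26 MRPS genes of the small subunit) and 22 to the import machinery.

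SW480 is an epithelial line established from a human colorectal adenocarcinoma, and the cells were unmodified (labelled WT). They were grown for 72 h in wells coated with a hydrogel of 2 kPa (soft) or 25 kPa (stiff), without CO2, and RNA was sequenced in 3 libraries at each stiffness. The design holds 1 cell line, and the methods describe 3 wells at each stiffness but no separate passages or days, so p-values measure only the spread between libraries of this experiment, which may be technical. Values are FPKM (fragments per kilobase of transcript and per unit of library size), which are scaled to transcript length, and are listed for replicates 1, 2 and 3 in that order. The study states a sequencing depth in its methods, but the reads behind a single value could not be recovered from the FPKM, and no counting error or detection floor is given. Because RNA was taken from whole wells, a lower level in every cell and a low level in some of the cells cannot be told apart.

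Mitochondria carry their own small genome, and its few messenger RNAs, all for subunits of the respiratory chain and ATP synthase, are translated by a dedicated ribosome. Every protein of that ribosome is encoded in the nucleus, made in the cytosol and imported. Precursor proteins bind receptors of the TOM complex and cross the outer membrane through its channel. From there the small TIM chaperones carry hydrophobic precursors across the intermembrane space, the TIM23 complex takes proteins with a presequence into the matrix, the TIM22 complex inserts carriers into the inner membrane, and SAMM50 folds barrel proteins into the outer membrane. The promoters of such nuclear genes are known for binding sites of ETS family factors (including GABP, also called NRF2), of NRF1 and of YY1.

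Promoter windows of the members were searched for these sites, since a shared promoter sequence is a property that the choice by name did not use. RefSeq windows of 300 bases (250 before and 50 after the annotated start, GRCh38.p14) were found for 82 members, 62 of the ribosome and 20 of import. The ETS core CCGGAAG, on either strand, was present in 45.1% of the members' windows, 43.5% for the ribosome and 50% for import, against 19.8% of 6454 windows of genes in the table and 10.7% of all 27305 windows. The YY1 core AAGATGGC was found in 24.4% of the members, with 29% of ribosome and 10% of import windows, against 5.62% in the table and 3.03% overall. In 7 members both cores occurred, and in 0 did they overlap. The consensus NRF1 site was near the background of the table, in 13.4% of members against 11.6%, as was CCAAT, in 34.1% against 36.7%. A GC box (GGGCGG) was found in 61% of members and 71.1% of table genes, and TATAAA in 2.44% and 6%. These shares describe letters in a window and are not measurements of binding.

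Windows are shown for 5 members to make these cores visible. MRPL3, MRPS31 and MRPL16 are the 3 of 7 windows, among members with the smallest p-values, that hold an ETS core, MRPL51 has the highest level of all members, and TIMM23 encodes the channel of the inner membrane. Each is written 5′ to 3′ on the strand of the gene, with ETS and YY1 cores in capitals in either orientation.
MRPL3 (chr3:131502922-131503221, minus strand): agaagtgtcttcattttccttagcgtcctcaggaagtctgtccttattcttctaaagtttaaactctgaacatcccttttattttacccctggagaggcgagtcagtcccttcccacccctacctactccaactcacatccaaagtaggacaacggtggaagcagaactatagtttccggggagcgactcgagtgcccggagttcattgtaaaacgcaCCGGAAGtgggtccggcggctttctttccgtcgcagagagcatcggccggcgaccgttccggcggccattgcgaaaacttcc
MRPS31 (chr13:40771141-40771440, minus strand): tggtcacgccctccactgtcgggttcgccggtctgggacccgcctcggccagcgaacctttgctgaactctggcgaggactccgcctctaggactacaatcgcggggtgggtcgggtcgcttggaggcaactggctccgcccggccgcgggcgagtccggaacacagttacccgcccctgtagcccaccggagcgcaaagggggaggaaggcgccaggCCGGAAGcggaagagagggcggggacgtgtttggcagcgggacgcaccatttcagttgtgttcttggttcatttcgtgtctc
MRPL16 (chr11:59810729-59811028, minus strand): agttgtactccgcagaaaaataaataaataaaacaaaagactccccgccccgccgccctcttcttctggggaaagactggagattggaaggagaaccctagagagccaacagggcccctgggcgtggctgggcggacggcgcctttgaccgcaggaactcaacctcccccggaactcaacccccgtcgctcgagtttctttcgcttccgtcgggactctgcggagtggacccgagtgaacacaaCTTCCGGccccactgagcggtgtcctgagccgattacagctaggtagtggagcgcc
MRPL51 (chr12:6493213-6493512, minus strand): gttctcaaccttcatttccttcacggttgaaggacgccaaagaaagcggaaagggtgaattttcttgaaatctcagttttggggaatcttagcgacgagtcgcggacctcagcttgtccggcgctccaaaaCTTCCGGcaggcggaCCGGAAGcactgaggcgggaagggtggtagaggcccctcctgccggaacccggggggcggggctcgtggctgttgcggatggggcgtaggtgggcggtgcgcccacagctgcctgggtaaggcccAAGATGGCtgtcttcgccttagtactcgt
TIMM23 (chr10:45972239-45972538, plus strand): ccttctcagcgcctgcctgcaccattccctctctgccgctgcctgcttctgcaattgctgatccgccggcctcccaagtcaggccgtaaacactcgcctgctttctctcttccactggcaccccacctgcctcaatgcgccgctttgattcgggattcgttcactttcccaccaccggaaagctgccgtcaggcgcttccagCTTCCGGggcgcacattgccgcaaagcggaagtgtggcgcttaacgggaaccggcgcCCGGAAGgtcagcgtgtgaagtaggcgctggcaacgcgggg
In both MRPL3 and MRPS31 the core began 32 bases before the annotated start and read forward. The core of MRPL16 began 6 bases before the start and read on the reverse strand. MRPL51 held 2 ETS cores, 119 and 104 bases before the start, and a YY1 core 21 bases after it. The 2 ETS cores of TIMM23 lay 48 bases before and 9 bases after the start. In the ribosome the median log2 fold change was 0.145 with the ETS core and 0.161 without it, and 0.158 with the YY1 core and 0.164 without it. In import the medians were 0.072 with the ETS core and 0.116 without it.

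Markers fitted the labelled cell type in part, and 9 of 14 colorectal epithelial markers were in the table. EPCAM, an epithelial adhesion molecule, ranged from 64.7 to 100.8 FPKM and KRT18 from 2611 to 3358 FPKM, while KRT20 and CDX1, markers of differentiated colon, reached at most 0.24 FPKM. Of these 9 markers 7 had a log2 fold change below 0, against 3448 of all 8529 genes. ASCL2 (group means of 26.2 FPKM at 2 kPa and 13.2 FPKM at 25 kPa), KRT19 (1562 and 1132 FPKM) and CDX2 (0.677 and 0.217 FPKM) were lower at 25 kPa without overlap, although none passed the test. Among all genes 4.78% were lower without overlap. Of the fibroblast list 3 markers were in the table, at most at 0.55 FPKM, and of the leukocyte list 3, of which LYZ ranged from 1.72 to 4.24 FPKM, CD14 from 0.17 to 1.83 FPKM and CD3D reached at most 0.15 FPKM. All 3 had a log2 fold change below 0, LYZ without overlap, and their summed level ran from 3.98 to 5.47 FPKM at 2 kPa and from 2.39 to 3.59 FPKM at 25 kPa. The part of these markers in the results was not tested. The summed FPKM of the 2 kPa replicate 2 library was 201030, below the 231714 to 263028 of the other 5. The counts and medians of ribosome and import members, and the single members that moved most with this library, are also given without it.

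Given this design, the first comparison asked whether mitochondrial ribosome genes differed between soft and stiff matrix. Most ribosome genes were measured somewhat higher at 25 kPa, but none passed the test. The fit was limma on log2(FPKM + 1) over all 8529 genes, with Benjamini-Hochberg adjustment, and it called 10 genes at an adjusted p under 0.05 (0.117%). None of the 92 members was among them, and the smallest adjusted p of a member was 0.258, for MRPS9. At an unadjusted p under 0.05, 8 of 70 ribosome members were higher at 25 kPa and 0 were lower, against 6.96% of all genes higher and 3.19% lower. With the libraries rescaled to equal FPKM sums, 2 ribosome members were higher and 2 lower at that level (all genes 3.48% and 4.67%), and with the GC trend removed 2 were higher and 0 lower (4.74% and 4.72%). Of the import members, 0 of 22 reached that level in either direction. The ribosome share higher at this p-value was 5.26% under 5 FPKM, 9.09% from 5 to 30 FPKM and 17.2% at 30 FPKM or above. Shares of all genes with such mean levels were 4.16%, 9.95% and 15.2%. In direction alone, 58 of 70 ribosome members and 14 of 22 import members had a log2 fold change above 0, against 59.6% of all genes. By the same levels, from low to high, the ribosome share was 73.7%, 95.5% and 79.3%, against 56.5%, 61.4% and 71.9% of all genes. With equal sums, 52 of the 92 members (56.5%) were above 0 in place of 72, against 45.6% of all genes. Of ribosome members alone 60% were then above 0, and of import members 45.5%. The ribosome share was 78.6% with the GC trend removed, 72.9% with median centring and 67.1% with quantile normalisation. In the same order the import share was 63.6%, 63.6% and 59.1%, and that of all genes 49%, 49.1% and 50.7%. Without 2 kPa replicate 2, 49 of 70 ribosome members (70%) and 13 of 22 import members (59.1%) were above 0, against 65.7% of all genes.

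**Figure D1:**
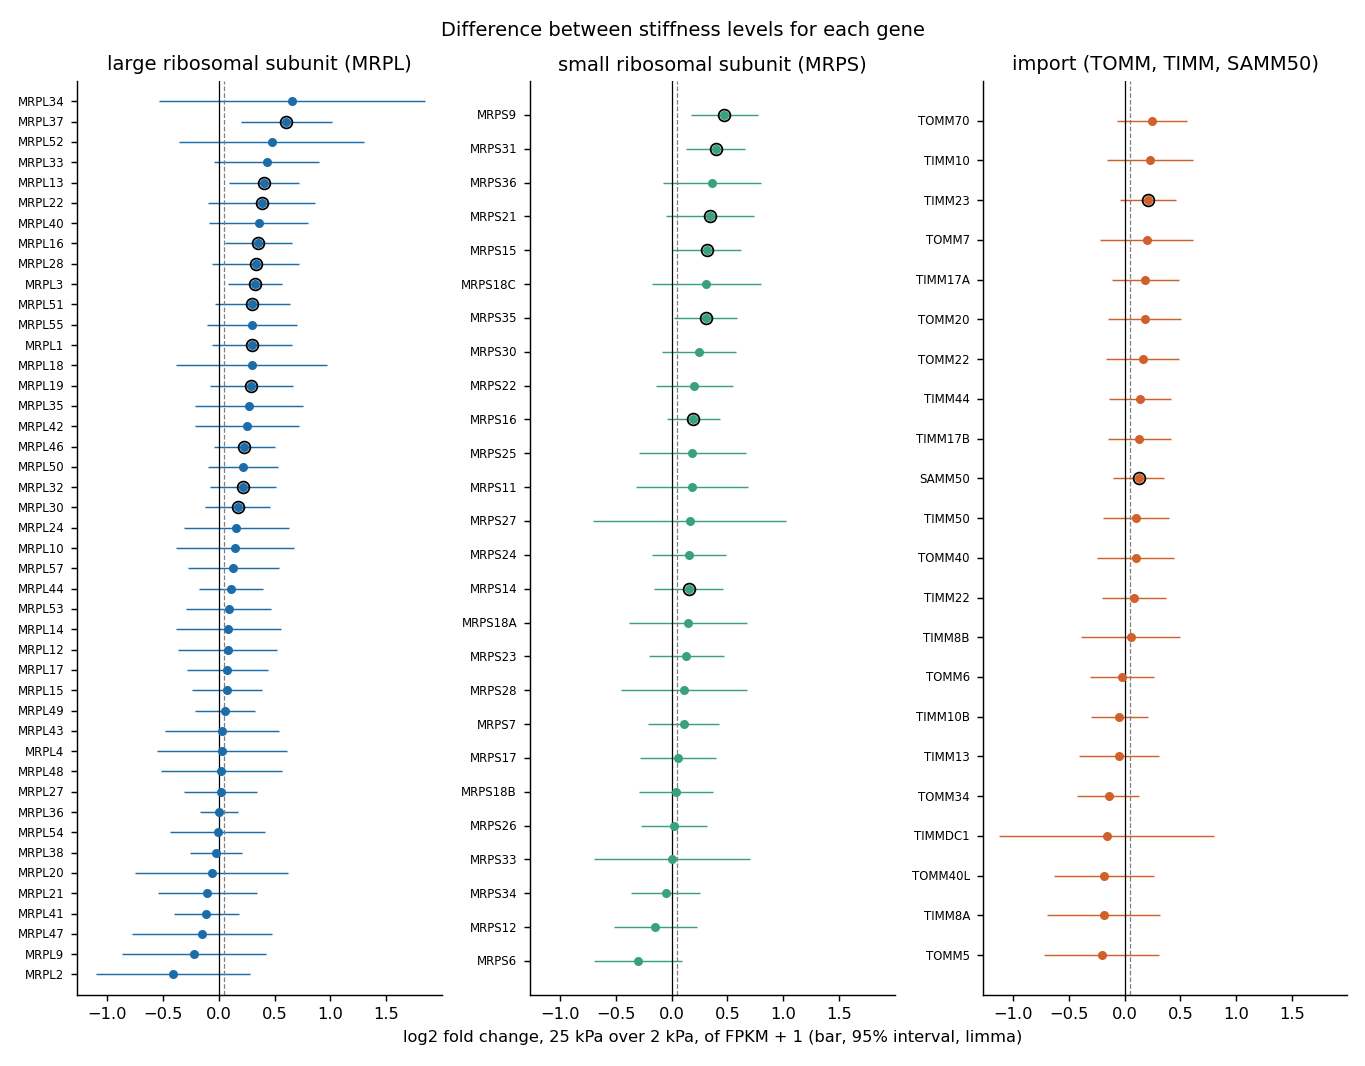
Log2 fold change (25 kPa over 2 kPa, of FPKM + 1) of each of the 92 members with its 95% interval from limma, in panels for the large subunit, the small subunit and import. Black rings mark the 21 members whose 3 libraries at 25 kPa all lay above the 3 at 2 kPa, the solid line is 0 and the dashed line is the median of all genes, 0.048.

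Groups did not overlap in 19 ribosome members (12 MRPL and 7 MRPS), all higher at 25 kPa, and in 2 import members, SAMM50 and TIMM23, also higher. The share among all genes was 11.2% higher and 4.78% lower. After rescaling of the libraries to equal FPKM sums, an alternative chosen after seeing the data for this count, 8 ribosome members were higher and 3 lower without overlap, and of the import members 0 were higher and 2 lower, against 5.33% of all genes higher and 7.79% lower.

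The 8 ribosome members at an unadjusted p under 0.05 came from both subunits. MRPS9, a small subunit protein with a bacterial counterpart, was measured at 34.6, 25.2 and 28.8 FPKM at 2 kPa and 40.4, 42.3 and 40.4 FPKM at 25 kPa. Every stiff library lay above every soft one, by a log2 fold change of 0.47 (SE 0.131, limma adjusted p = 0.258). MRPS31, a small subunit protein without a bacterial counterpart, stood at 17.4, 15.4 and 16.3 FPKM at 2 kPa and 22.9, 20.6 and 21.9 FPKM at 25 kPa, again without overlap. Its log2 fold change was 0.40 (SE 0.115, limma adjusted p = 0.282). MRPS35, also specific to the mitochondrial small subunit, gave 38.9, 30.3 and 36.1 FPKM at 2 kPa and 44.5, 40.6 and 45.3 FPKM at 25 kPa. MRPS15, whose bacterial counterpart binds ribosomal RNA early in assembly, gave 61.3, 46.9 and 62.4 FPKM at 2 kPa and 67.9, 76.2 and 67.2 FPKM at 25 kPa. In both genes the 2 kPa replicate 2 library was the lowest of the 6, and the other soft libraries lay closer to the stiff ones. The log2 fold changes of MRPS35 and MRPS15 were 0.31 and 0.31, with limma adjusted p = 0.448 and 0.484. Without 2 kPa replicate 2 the log2 fold changes were 0.206 and 0.183, and neither gene was then at an unadjusted p under 0.05.

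In the large subunit, MRPL3, counterpart of a bacterial protein that begins large subunit assembly, read 68.9, 62.1 and 62.9 FPKM at 2 kPa and 84.1, 76.1 and 83.6 FPKM at 25 kPa. The 3 soft libraries lay within 7 FPKM of each other and all below the stiff ones, with a log2 fold change of 0.33 (SE 0.105, limma adjusted p = 0.337). MRPL13 read 22.9, 18.2 and 25.2 FPKM at 2 kPa and 29.6, 28.4 and 29.9 FPKM at 25 kPa, and the 3 stiff libraries differed by less than the 3 soft ones. MRPL16, which lies near the tRNA-binding site of the large subunit, read 36.5, 28.4 and 34.9 FPKM at 2 kPa and 41.4, 47.4 and 39.4 FPKM at 25 kPa. Log2 fold changes of MRPL13 and MRPL16 were 0.41 and 0.36 (limma adjusted p = 0.354 and 0.404). Without 2 kPa replicate 2 that of MRPL16 was 0.249, no longer at an unadjusted p under 0.05. MRPL37, a mitochondria-specific protein of the large subunit, was close to the bottom of the scale, at 0.16, 0.04 and 0.04 FPKM at 2 kPa and 0.21, 1.03 and 0.80 FPKM at 25 kPa. Its log2 fold change of 0.61 (SE 0.178, limma adjusted p = 0.285) rests on values at or under 1.03 FPKM, and the lowest stiff library was only just above the highest soft one. At such levels the size depends on the pseudocount, and the log2 fold change of MRPL37 was 1.98 with a pseudocount of 0.1 and 2.92 with 0.01.

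**Figure D2:**
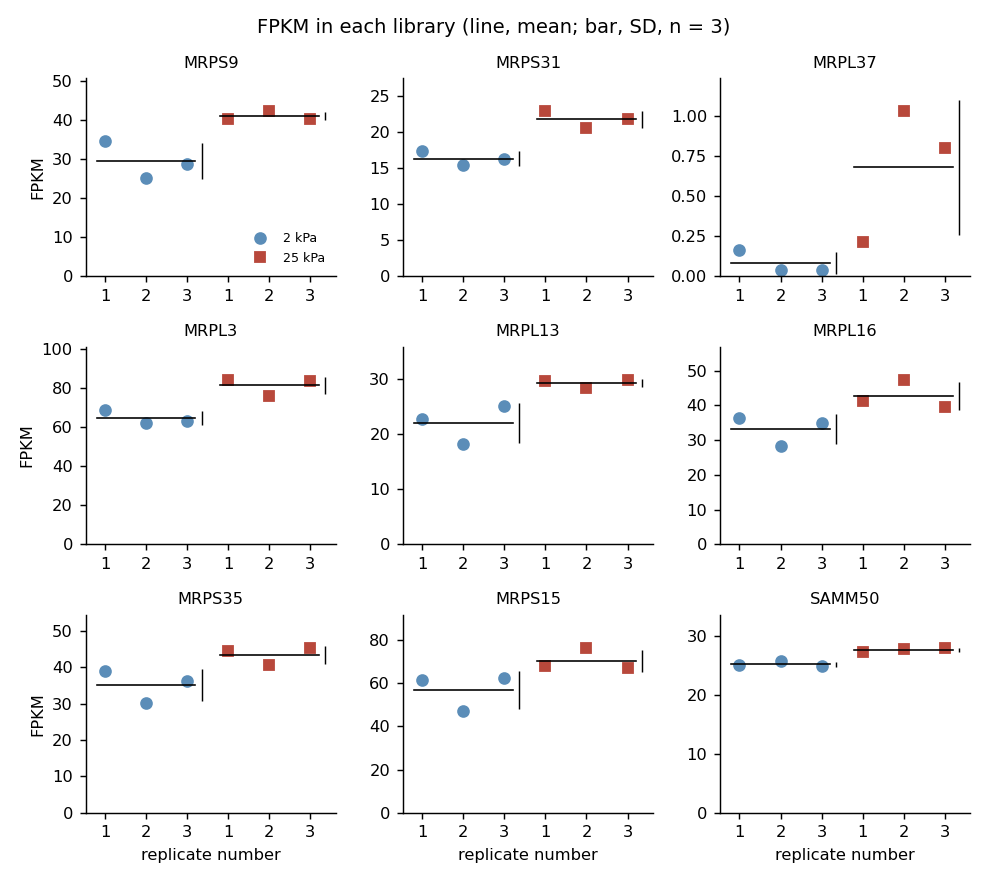
FPKM (vertical axis from 0) in each of the 6 libraries for the 8 members at an unadjusted p under 0.05 and for SAMM50, with lines for group means and bars for the SD of 3 libraries. In each panel the 25 kPa squares lie above the 2 kPa circles, and in every panel except MRPL37 and SAMM50 the lowest circle is replicate 2.

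Over the different alternatives, MRPS9 stayed at an unadjusted p under 0.05 in 15 of 15 and MRPL37 in 14 of 14 that could give it a value, MRPS31 in 13 of 15 and MRPL13 in 12. By contrast MRPL3 did so in 9, MRPL16 in 8, MRPS35 in 6 and MRPS15 in 2 of 15. Adjusted p-values for MRPS9 ranged from 0.212 to 0.589 over these alternatives.

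The MRPL members with the largest log2 fold changes included 2 of low level and wide spread. MRPL34, a short protein of the large subunit, was measured at 3.20, 1.77 and 2.11 FPKM at 2 kPa and 9.12, 1.05 and 5.85 FPKM at 25 kPa. The stiff libraries both exceeded and fell below the soft ones, so that a log2 fold change of 0.66 had an SE of 0.523. MRPL52, mitochondria-specific, also had overlapping groups, at 3.44, 1.39 and 4.13 FPKM at 2 kPa and 6.10, 2.47 and 4.92 FPKM at 25 kPa (log2 fold change 0.47, SE 0.364, and 0.141 without 2 kPa replicate 2). On the side of lower values at 25 kPa, MRPL2, which lies close to the peptidyl transferase centre, was measured at 0.40, 2.33 and 1.48 FPKM at 2 kPa and 0.93, 0.44 and 0.77 FPKM at 25 kPa. The groups overlapped (log2 fold change −0.41, SE 0.303, and −0.132 without 2 kPa replicate 2), since the lowest of all 6 values was a soft library. MRPL9 gave 2.76, 0.89 and 2.07 FPKM at 2 kPa and 1.45, 1.69 and 1.08 FPKM at 25 kPa, and MRPL47 gave 1.14, 0.73 and 1.82 FPKM at 2 kPa and 1.81, 0.74 and 0.57 FPKM at 25 kPa. All 3 genes lay under 3 FPKM in every library, and without 2 kPa replicate 2 the log2 fold changes of MRPL9 and MRPL47 were −0.505 and −0.317.

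Among MRPS genes, MRPS36 came next after MRPS9 and MRPS31, at 10.8, 7.21 and 12.5 FPKM at 2 kPa and 12.1, 13.3 and 13.8 FPKM at 25 kPa (log2 fold change 0.36, and 0.159 without 2 kPa replicate 2). Despite its name, this protein is now known as a subunit of the 2-oxoglutarate dehydrogenase complex. MRPS6, a small subunit protein with a bacterial counterpart, lay furthest in the other direction, at 169, 228 and 179 FPKM at 2 kPa and 125, 173 and 171 FPKM at 25 kPa. Here the 2 kPa replicate 2 library was the highest of the 6, which is the opposite of most ribosome members, and the groups overlapped (log2 fold change −0.30, SE 0.173, and −0.170 without that library). MRPS12, a protein of the decoding centre, was at 44.1, 28.4 and 36.4 FPKM at 2 kPa and 29.4, 34.8 and 32.6 FPKM at 25 kPa. MRPS34 was at 53.00, 42.2 and 46.00 FPKM at 2 kPa and 42.7, 52.5 and 41.1 FPKM at 25 kPa. In both genes the difference was within the spread of the libraries, with log2 fold changes of −0.15 and −0.051. Without 2 kPa replicate 2 these were −0.306 and −0.125, and MRPS12 was then the 1 ribosome member lower at an unadjusted p under 0.05.

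Levels of ribosome genes, although their products meet in 1 particle, covered more than 3 orders of magnitude. The highest was MRPL51, a large subunit protein, at 217, 167 and 229.7 FPKM at 2 kPa and 243, 261 and 245 FPKM at 25 kPa, followed by MRPS6 and by MRPS24 at 165, 128 and 158 FPKM at 2 kPa and 154, 189.8 and 158 FPKM at 25 kPa. At the other end stood MRPL36, at 0.11, 0.19 and 0.16 FPKM at 2 kPa and 0.11, 0.23 and 0.12 FPKM at 25 kPa, MRPL14 at 0.16, 0.56 and 0.24 FPKM at 2 kPa and 0.37, 0.88 and 0.04 FPKM at 25 kPa, and MRPL37. These 3 low genes encode structural proteins of the ribosome, and 19 of the 70 ribosome members averaged under 5 FPKM. The same table lists GAPDH, an abundant glycolytic messenger in most cells, at 0.32 to 3.35 FPKM, so a low value in the table cannot be read as a low level of the messenger. In the low members the libraries also varied more, with a median coefficient of variation of 38.3% under 5 FPKM against 12.6% at 30 FPKM or above. Across the 70 ribosome genes, log2 values of any pair of libraries had a Pearson r between 0.9747 and 0.9897, as a description of shared gene levels.

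**Figure D3:**
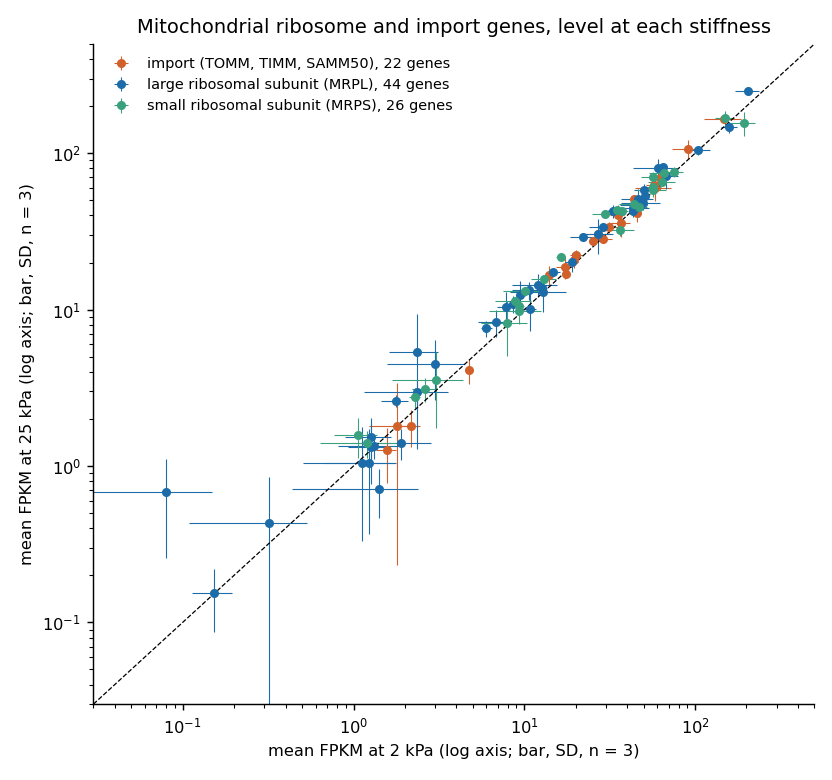
Mean FPKM of each member at 2 kPa (horizontal) and 25 kPa (vertical), both on log axes, with bars for the SD of 3 libraries, cut at the axis where they reach it, and a dashed line of equality. Ribosome members run from 0.153 to 227.1 FPKM over all libraries, import members from 1.42 to 158 FPKM, and most points lie close to the line.

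Gene models could also mix signals. In the GENCODE annotation of GRCh38, exons of 42 of the 92 members overlap exons of another protein-coding gene, 17 of them on the same strand and 28 on the opposite strand (some on both), and the use of strand in counting is not given in the sources used here. MRPS6 shares exons with SLC5A3, a sugar alcohol transporter, and SAMM50 with PNPLA3. MRPL51 overlaps NCAPD2, and MRPL37 overlaps SSBP3 and CYB5RL on the opposite strand. Named pseudogene copies are annotated for 37 members, among them 4 for MRPS31. Neither count was made over all genes, so the members cannot be compared with the rest of the table. The submitters' notes name hg18, so the gene models behind the FPKM may differ. Values of the members with such overlaps or copies are uncertain to that extent.

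Import genes were compared next, from the outer membrane inwards, and 0 of the 22 passed either level of the test. In the TOM complex, TOMM40, which forms the channel, was measured at 18.1, 18.4 and 15.2 FPKM at 2 kPa and 18.7, 21.6 and 15.5 FPKM at 25 kPa. TOMM20, the receptor for presequences, stood at 38.8, 34.7 and 32.2 FPKM at 2 kPa and 45.3, 32.98 and 42.5 FPKM at 25 kPa. TOMM70, the receptor for carrier precursors, gave 13.9, 14.4 and 13.4 FPKM at 2 kPa and 18.8, 14.2 and 17.3 FPKM at 25 kPa, with stiff replicate 2 among the soft values and the other 2 stiff libraries above them. It had the largest log2 fold change of the import genes, 0.25 (SE 0.137, limma adjusted p = 0.596). TOMM22, the central receptor, gave 61.96, 55.1 and 69.1 FPKM at 2 kPa and 63.8, 83.1 and 62.98 FPKM at 25 kPa, in which the soft and stiff values overlapped. The small subunits stood far apart in level, with TOMM7 at 162, 107 and 176 FPKM at 2 kPa and 159.6, 176 and 165 FPKM at 25 kPa, TOMM6 at 31.7, 24.6 and 30.01 FPKM at 2 kPa and 28.9, 27.02 and 28.7 FPKM at 25 kPa and TOMM5 at 1.34, 1.59 and 1.77 FPKM at 2 kPa and 1.52, 0.70 and 1.57 FPKM at 25 kPa. For TOMM7 the 2 kPa replicate 2 library lay well under the other 5, and without it the log2 fold change of 0.20 became −0.018. Of the 7 genes of the complex, 5 were higher and 2 (TOMM5 and TOMM6) lower at 25 kPa, while TOMM40 turned to −0.020 with equal library sums, and the median of their log2 fold changes was 0.164.

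Small TIM chaperones gave no common direction, with 2 of 5 higher, of which TIMM8B turned to −0.067 with equal library sums. TIMM10, which pairs with TIMM9 in the main chaperone ring, was the most abundant, at 96.8, 71.2 and 105 FPKM at 2 kPa and 95.8, 123 and 99.9 FPKM at 25 kPa (log2 fold change 0.23, SE 0.169), and without 2 kPa replicate 2 its log2 fold change was 0.065. TIMM10B, its relative at the TIM22 complex, was among the steadiest genes, at 17.5, 17.8 and 17.4 FPKM at 2 kPa and 16.2, 16.96 and 17.8 FPKM at 25 kPa. TIMM13 stood at 41.9, 31.8 and 36.8 FPKM at 2 kPa and 31.4, 43.2 and 32.3 FPKM at 25 kPa, and its partner TIMM8A, the gene of deafness-dystonia syndrome, at 2.48, 2.08 and 1.97 FPKM at 2 kPa and 2.37, 1.53 and 1.53 FPKM at 25 kPa. TIMM8B gave 61.1, 43.5 and 70.9 FPKM at 2 kPa and 51.03, 72.4 and 57.3 FPKM at 25 kPa, with the lowest and the highest value both in a replicate 2 library, and its log2 fold change was −0.140 without 2 kPa replicate 2. Groups overlapped in all 5, and the median log2 fold change was −0.046.

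In TIM23 and TIM22 complexes all 6 members were slightly higher at 25 kPa, and their log2 fold changes had a median of 0.134. TIMM23, the channel protein, was measured at 48.3, 39.8 and 43.9 FPKM at 2 kPa and 51.4, 51.5 and 49.7 FPKM at 25 kPa, without overlap between groups (log2 fold change 0.21, SE 0.11, limma adjusted p = 0.575). TIMM17A, a channel partner, was at 30.6, 22.5 and 27.7 FPKM at 2 kPa and 30.7, 30.4 and 30.4 FPKM at 25 kPa. The other form, TIMM17B, was at 58.6, 51.1 and 62.8 FPKM at 2 kPa and 65.02, 67.6 and 56.4 FPKM at 25 kPa. In TIMM17A the stiff libraries lay within 1 FPKM of each other, whereas the soft ones ranged more widely. TIMM50, the receptor of the complex, gave 35.8, 27.3 and 30.8 FPKM at 2 kPa and 32.04, 36.6 and 32.1 FPKM at 25 kPa, and TIMM44, which docks the import motor, gave 21.1, 21.2 and 18.3 FPKM at 2 kPa and 21.9, 24.3 and 20.8 FPKM at 25 kPa. TIMM22, the carrier insertase, gave 20.3, 18.4 and 19.6 FPKM at 2 kPa and 18.6, 23.2 and 20.3 FPKM at 25 kPa. After rescaling to equal sums the direction turned for TIMM22 (−0.036) and TIMM50 (−0.017), so the shared direction of the 6 did not hold under this scaling. All 6 stayed above 0 with the GC trend removed (median 0.123), median centring (0.082) and quantile normalisation (0.055). In 5 of the 6 the lowest value was in 2 kPa replicate 2, and without this library the log2 fold changes were 0.138 for TIMM23, 0.066 for TIMM17A, 0.050 for TIMM17B, 0.045 for TIMM22, 0.015 for TIMM50 and 0.174 for TIMM44, with a median of 0.058.

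SAMM50 was among the members with the least spread, at 25.1, 25.7 and 24.9 FPKM at 2 kPa and 27.2, 27.7 and 27.9 FPKM at 25 kPa. The 3 stiff libraries all lay above the soft ones, and the group means were 25.2 ± 0.424 FPKM and 27.6 ± 0.348 FPKM (SD, n = 3). The log2 fold change was 0.13 (SE 0.101, limma adjusted p = 0.746). In limma this SE draws on the spread of all genes of like level, and is wider than the 3 libraries alone would give. SAMM50 is shown by the study among genes picked from these same libraries, so its direction is not independent evidence. Its log2 fold change ranged from 0.006 to 0.14 over the alternatives. The remaining import members were TOMM34, a cytosolic co-chaperone, TOMM40L, a relative of the channel, and TIMMDC1, an assembly factor of respiratory complex I that shares only its name with the import genes. Each of these 3 had a negative log2 fold change, between −0.19 and −0.14, and overlapping groups. For TIMMDC1 the group means were 1.807 FPKM at 2 kPa and 1.813 FPKM at 25 kPa, with 1 stiff library at 0.24 FPKM, and its log2 fold change was 0.004 without 2 kPa replicate 2.

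Ribosome and import genes were then compared as groups, as a description with no test. Their median log2 fold changes were 0.157 and 0.102, against 0.048 for all genes, and ribosome and import differed by 0.055. Between single libraries of a group the SD of this difference was 0.083, a wider measure than the spread of means of 3 libraries. Both subunits gave nearly the same median, 0.153 for the large and 0.159 for the small. By level, the ribosome median was 0.147 for 19 genes under 5 FPKM, 0.25 for 22 genes from 5 to 30 FPKM and 0.107 for 29 genes at 30 FPKM or above. The corresponding medians of all genes were 0.027, 0.073 and 0.118, so that the most abundant ribosome genes lay no higher than other genes of their level. In the middle class 21 of 22 ribosome genes were higher at 25 kPa. All 4 import genes under 5 FPKM had a log2 fold change below 0, with a median of −0.187, although the mean FPKM of TIMMDC1 was not lower at 25 kPa.

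A large part of these medians moved with 1 library. In the 2 kPa replicate 2 library, 50 of 70 ribosome members and 12 of 22 import members had the lowest value of their group, against 2271 of 8529 genes. For the small subunit the count was 22 of 26. Centred on each gene's mean, the median of ribosome members in this library was −0.297 and that of import members −0.111, while that of all genes was 0.039. Genes at 30 FPKM or above shared this, with 607 of 968 lowest there and a centred median of −0.196. The opposite stood in 25 kPa replicate 2, with centred medians of 0.126 for the ribosome and 0.146 for import. Without 2 kPa replicate 2 the ribosome median was 0.096 and the import median 0.030, against 0.084 for all genes, and at an unadjusted p under 0.05 there were 5 ribosome members higher (7.14%) and 1 lower (1.43%), against 8.5% and 2.77% of all genes. Without overlap there were then 20 ribosome members higher (28.6%) and 6 lower, against 21.1% and 7.22% of all genes. Without 25 kPa replicate 2 the import median was 0.022. With any library other than 2 kPa replicate 2 left out, the ribosome median ran from 0.154 to 0.213. The lower value was without 25 kPa replicate 2 (all genes 0.061) and the higher without 2 kPa replicate 3 (all genes 0.017). Without 2 kPa replicate 3, 12 ribosome members were higher at an unadjusted p under 0.05 (17.1%) and 0 lower, against 5.46% and 3.51% of all genes.

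**Figure D4:**
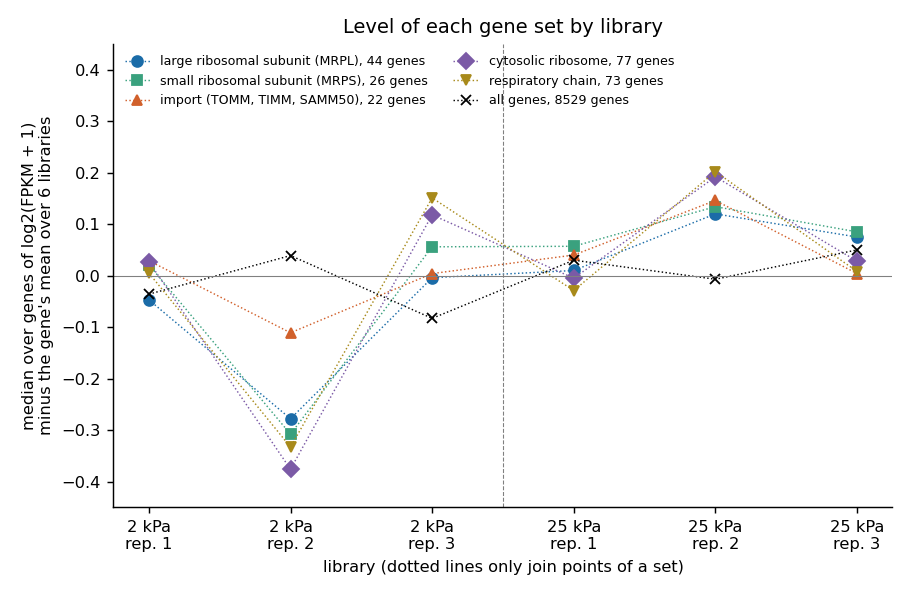
Median over genes of log2(FPKM + 1) minus each gene's mean over 6 libraries, for the 2 ribosomal subunits, import genes, cytosolic ribosomal proteins, the respiratory chain and all genes, by library. In 2 kPa replicate 2 the large subunit is at −0.278, the small subunit at −0.308, the cytosolic ribosome at −0.376 and the respiratory chain at −0.333, with all genes at 0.039, and in the other 5 libraries these 4 families lie closer to 0.

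To set the members beside other abundant gene families, cytosolic ribosomal proteins and the nuclear respiratory chain were summarised in the same fit. The cytosolic ribosome had a median log2 fold change of 0.16, with 62 of 77 genes higher (80.5%). The respiratory chain had 0.107, with 55 of 73 higher (75.3%), against 59.6% of all genes. At an unadjusted p under 0.05, 2 cytosolic ribosomal genes were higher (2.6%) and 2 lower (2.6%). At that level 3 respiratory chain genes were higher (4.11%) and 1 lower (1.37%), against 6.96% and 3.19% of all genes. In 2 kPa replicate 2, 63 of 77 cytosolic ribosomal and 59 of 73 respiratory chain genes had their group's lowest value. Without this library the medians of the 2 families were 0.002 and −0.014, against 0.084 for all genes.

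Partners of the members under other names were read from lists of the same pathways. Beside their counts stand 59.6% of all genes with a log2 fold change above 0. At an unadjusted p under 0.05, 6.96% of all genes were higher and 3.19% lower. Of 8 partners of the mitochondrial ribosome under other symbols, 6 were higher at 25 kPa (75%) and 0 reached an unadjusted p under 0.05. NDUFAB1, the mitochondrial acyl carrier protein, was the most abundant, at 107, 73.6 and 115 FPKM at 2 kPa and 109, 121 and 102 FPKM at 25 kPa, and GADD45GIP1 (CRIF1), a large subunit protein at the exit tunnel, was at 60.9, 55.2 and 54.00 FPKM at 2 kPa and 64.95, 62.5 and 58.9 FPKM at 25 kPa. DAP3, a small subunit protein, varied from 0.10 to 2.83 FPKM.

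Of 13 assembly factors, 1 was higher (7.69%, all genes 6.96%) and 1 lower (all genes 3.19%) at an unadjusted p under 0.05. METTL17, needed for small subunit assembly, was measured at 3.50, 5.46 and 5.21 FPKM at 2 kPa and 8.54, 8.31 and 10.6 FPKM at 25 kPa, without overlap. Its log2 fold change of 0.84 (SE 0.199, limma adjusted p = 0.195) did not pass the test. MRM1, a methyltransferase of mitochondrial ribosomal RNA, was lower, at 0.67, 0.65 and 0.58 FPKM at 2 kPa and 0.52, 0.21 and 0.29 FPKM at 25 kPa (log2 fold change −0.29, limma adjusted p = 0.457). The other methyltransferases of this RNA, MRM2 and MRM3, were the most abundant of the list. MRM2 gave 38.4, 32.1 and 32.7 FPKM at 2 kPa and 38.8, 40.1 and 41.9 FPKM at 25 kPa, all stiff libraries above the soft ones, and MRM3 gave 20.2, 16.4 and 20.6 FPKM at 2 kPa and 18.1, 17.3 and 17.9 FPKM at 25 kPa, with overlap.

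Translation factors of the organelle (14 genes, 9 higher) had 0 genes at an unadjusted p under 0.05. SLIRP, which stabilises mitochondrial messengers, was measured at 322, 194 and 325 FPKM at 2 kPa and 352, 369 and 337 FPKM at 25 kPa, and the lowest value was again in 2 kPa replicate 2, without which its log2 fold change of 0.37 was 0.126. TUFM, the elongation factor, was at 109, 92.3 and 102 FPKM at 2 kPa and 106, 122 and 97.1 FPKM at 25 kPa. Of 7 genes of mitochondrial DNA transcription and replication, 4 were lower, including POLG at 15.9, 12.7 and 9.37 FPKM at 2 kPa and 12.9, 8.50 and 10.6 FPKM at 25 kPa and POLRMT at 11.7, 11.95 and 7.87 FPKM at 2 kPa and 8.68, 9.80 and 8.08 FPKM at 25 kPa. Both sets of values overlapped between groups.

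Among 14 genes of the import motor, presequence processing and folding, 11 were higher (78.6%, all genes 59.6%). At an unadjusted p under 0.05, 1 was higher (7.14%, all genes 6.96%). This was HSPE1, the mitochondrial co-chaperonin, at 95.8, 72.4 and 101 FPKM at 2 kPa and 110.2, 125 and 116 FPKM at 25 kPa (log2 fold change 0.39, limma adjusted p = 0.403, and a log2 fold change of 0.246 without 2 kPa replicate 2). HSPA9, the motor chaperone, was at 105, 87.1 and 96.9 FPKM at 2 kPa and 104, 98.6 and 125 FPKM at 25 kPa, with overlap. HSPD1, the chaperonin that HSPE1 caps, was listed at only 0.29 to 3.26 FPKM. Of 11 partners in the intermembrane space and outer membrane, 7 were higher, the most abundant being ROMO1 at 154, 116 and 183 FPKM at 2 kPa and 135, 183 and 157 FPKM at 25 kPa and MTCH2 at 21.9, 19.4 and 22.7 FPKM at 2 kPa and 21.4, 24.1 and 23.4 FPKM at 25 kPa. The 2 cristae genes in the table, CHCHD3 and MINOS1, averaged under 1 FPKM.

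The 6 regulators of nuclear genes for mitochondria held 0 genes at an unadjusted p under 0.05. MYC was at 71.1, 81.04 and 55.8 FPKM at 2 kPa and 69.3, 56.7 and 52.8 FPKM at 25 kPa, and DDIT3, a stress-induced factor, at 24.5, 35.3 and 36.8 FPKM at 2 kPa and 25.6, 40.4 and 37.1 FPKM at 25 kPa. GABPA, the subunit of GABP that binds the ETS core, varied from 1.77 to 3.36 FPKM and YY1 from 18.9 to 27.3 FPKM, with overlapping groups in both.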

How the data were processed

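SW480 cells on hydrogels of 2 kPa or 25 kPa were sequenced in 3 libraries per group. The authors normalised reads to FPKM and deposited a table of FPKM with 8529 gene symbols and 6 libraries. The submitters' processing notes name HISAT, StringTie, Bowtie2, RSEM and hg18, without versions or roles. The study's methods mention a small RNA selection step. DESeq2, named in the methods, models counts and was not run. The methods state a sequencing depth, but reads per library could not be recovered from the FPKM. Ratios of low FPKM in 5 libraries to 2 kPa replicate 1 did not fall on steps of whole reads. Where many reads lie behind each value such steps are too fine to see, so this result cannot decide the depth. The table had 0 unassigned columns. Groups came from the labels.

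From the deposited FPKM, log2(FPKM + 1) was fitted by a linear model with a variance trend (limma 3.58.1, R 4.3.3, two-sided tests) over all 8529 genes, with Benjamini-Hochberg adjustment and a threshold of 0.05. The fit was also run on data simulated with independent errors for each gene. That simulation held no shift shared by the genes of a library, so it cannot speak for such shifts. Summaries were made in Python 3.11.15 (numpy 2.4.6, pandas 2.3.3) and plots in matplotlib 3.10.9. GC content, exon overlaps and promoter windows came from GRCh38 annotation.

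Values in every library were given for SAMM50, members at an unadjusted p under 0.05, the TOM, small TIM, TIM23 and TIM22 genes, the 3 MRPL and 3 MRPS genes with the largest change in each direction, and the 3 highest and 3 lowest ribosome genes. From partner lists, genes at an unadjusted p under 0.05 and the 2 most abundant were named. DAP3, HSPD1, GABPA, YY1, TOMM34, TOMM40L, TIMMDC1 and the markers with values were named after their values were seen. Members and lists were chosen with earlier results of these data known. Alternatives were a filter at a mean FPKM of 1, pseudocounts of 0.1 and 0.01, equal library sums, median centring, quantile normalisation, removal of a GC trend, no variance trend, the replicate number as a block and each library left out. Counts of groups without overlap under other scalings and without 2 kPa replicate 2 were chosen after seeing the data.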

Additional observations from a re-analysis of the deposited data

How the results depend on the processing

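In none of the 15 alternatives did a member pass an adjusted p under 0.05, and the smallest was 0.144, for MRPL37 without 25 kPa replicate 1. The medians of all genes moved with the scaling, from 0.048 to −0.019 with equal library sums, and of all genes at an unadjusted p under 0.05 the share higher at 25 kPa moved from 68.6% to 42.7% (equal sums), 50.1% (GC trend removed), 49.9% (median centring) and 51.1% (quantile normalisation). Ribosome members at that level numbered 8, and 4 with equal sums (2 higher, 2 lower), 2 with the GC trend removed, 3 with median centring and 5 with quantile normalisation. With median centring the 3 were all higher (4.29%), against 4.57% of all genes higher and 4.58% lower. With quantile normalisation 4 were higher (5.71%) and 1 lower (1.43%), against 5.52% and 5.29%. With equal sums 1 import member reached an unadjusted p under 0.05, lower (4.55%, all genes 4.67%), and the import median was −0.018. The ribosome median was 0.062 with equal sums, 0.096 with the GC trend removed, 0.105 with median centring and 0.092 with quantile normalisation. For the GC trend, median centring and quantile normalisation the import medians were 0.036, 0.05 and 0.032. The medians of all genes were then −0.005, −0.004 and 0.003. Ribosome members without overlap numbered 19, and 11 with equal sums, 10 with quantile normalisation and 7 with median centring, and import members 2, and 4, 0 and 4 with quantile normalisation, median centring and without 2 kPa replicate 2. With quantile normalisation 8 ribosome members were higher (11.4%) and 2 lower (2.86%), against 8.41% and 7.64% of all genes. Of the import members 2 were then higher and 2 lower (9.09% each). With median centring the 7 were all higher (10%), against 7.82% of all genes higher and 7.03% lower. Without 2 kPa replicate 2, 3 import members were higher (13.6%) and 1 lower (4.55%), against 21.1% and 7.22% of all genes. Genes with an adjusted p under 0.05 numbered 10, and 6 without a variance trend, 17 with a pseudocount of 0.1 and 3 to 11 with single libraries left out. Leaving out single libraries gave 0 to 2 import members at an unadjusted p under 0.05 and an import median of 0.022 to 0.134, with the 2 members and the lowest median both without 25 kPa replicate 2. The cause was not tested.

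The replicate number as a block left 3 genes with an adjusted p under 0.05 and 6 ribosome members at an unadjusted p under 0.05. Deviations of same-numbered libraries correlated at 0.115, −0.267 and −0.125, and those of other pairs at −0.238 to 0.294. Deviations from a mean of 3 libraries are tied to each other, so these values cannot settle whether the numbers pair the libraries.

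Of 597 values of 40 single members under alternatives, 31 had the opposite sign. With equal sums these were TIMM22 (−0.036), TIMM50 (−0.017), TIMM8B (−0.067) and TOMM40 (−0.020), and with the GC trend removed TIMM13 (0.002), TIMM8B (−0.049), MRPS34 (0.007) and MRPL36 (0.061). With a pseudocount of 0.01 MRPL14 was at −0.173, and with quantile normalisation TIMM8B was at −0.029. With single libraries left out, values ran from −0.195 to 0.043 for TIMM13, −0.126 to 0.051 for TOMM6, −0.306 to 0.003 for MRPS12, −0.157 to 0.036 for MRPS34, −0.133 to 0.294 for MRPL14, −0.140 to 0.207 for TIMM8B, −0.018 to 0.334 for TOMM7, −0.048 to 0.026 for MRPL36, −0.403 to 0.036 for MRPL47 and −0.007 to 0.217 for TOMM40. Reads per value could not be recovered, so counting error of the members under 5 FPKM is not given.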
